A study of Mus musculus with 9 samples.

Results

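The genes described here are 54 genes of the mitotic cell cycle and of DNA replication, of the 24972 gene names in the deposited table. They were chosen by symbol for their place in the cycle, with no threshold on a measured value, but with earlier results of these data known. They fall into 16 genes that control the passage from G1 to S phase, 15 genes of DNA replication, 19 genes of G2 and mitosis and 4 genes of the spindle checkpoint. Of these 54 genes, 53 passed a filter of at least 10 normalized counts in at least 3 libraries, and 1, Cdk6, did not.

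The cells were Neuro2A, a mouse neuroblastoma line labelled as wild type (WT), and each group was 3 samples of this 1 line. All were grown in DMEM with 10% FBS and antibiotics. The DMSO group received the solvent alone, the LCX group 500 nM and the HCX group 1 mM of 4-methylumbelliferyl xyloside, a sugar that primes glycosaminoglycan chains in place of a core protein, and the xylosides were dissolved in DMSO. The sample labels give 48 h of treatment, while a legend of the study gives 72 h for the RNA sequencing. Total RNA was made into stranded libraries of polyadenylated RNA, and whether the samples came from separate cultures is not stated in the labels, so p-values measure only the spread between these samples, which may be technical.

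Cyclin-dependent kinases drive the cell cycle, each switched on by a cyclin that is made and destroyed at set times. In G1, the D-type and E-type cyclins with their kinases phosphorylate the retinoblastoma protein, which frees E2F factors to switch on the genes of replication. Later in the cycle, a further wave of transcription, driven through CCAAT boxes and the cell cycle genes homology region (CHR) of promoters, provides the cyclins, kinases, motors and checkpoint proteins of mitosis. In neuroblastoma, MYC proteins are well-known drivers of the cycle, and neuronal differentiation is accompanied by exit from it.

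Changes in HCX were small. With the deposited values, most calls were among the genes of G2 and mitosis (10 of 18 against DMSO and 9 of 17 against LCX). Against DMSO these were 7 of 15, 5 of 13 and 4 of 12 in 3 other scalings or fits given below. The fit that gave 4 of 12 also scales by library size, like the one that gave 5 of 13. Against LCX they were 1 of 5 without LCX replicate 3. A difference between phases was not tested. Genes of G2 and mitosis were lower in HCX: 10 of 19 fell against DMSO and 9 of 19 against LCX, and no gene among them rose in either comparison. Of the 4 spindle checkpoint genes, Bub1b and Cdc20 fell against both. Among the 15 replication genes, Mcm7, Gins2 and Rrm2 rose and Rrm1 fell, against both DMSO and LCX. The rises were 20% of these genes, beside 5.73% of all genes tested called higher against DMSO and 8.35% against LCX. Against DMSO only 1 replication gene rose with no filter, or without DMSO replicate 1, DMSO replicate 2 or HCX replicate 2. In G1/S control, Cdkn1a and Ccnd2 fell against DMSO, while Cdkn1b and E2f1 rose against LCX, of 15 genes tested. The 13.3% called lower there against DMSO was near the 13.5% of all genes tested, and so was not above the background. Against LCX 13.3% of G1/S control was called higher, beside 8.35% of all genes tested. Among genes with a mean of at least 1000 normalized counts this was 10.3%. Without LCX replicate 3 or HCX replicate 3, no gene of G1/S control was called higher against LCX. A gene is called changed here where limma gave it a Benjamini-Hochberg adjusted p under 0.05 over the 13179 genes tested, and the 3 HCX libraries enter both comparisons. In RNA of whole cultures, fewer cells in a phase and less RNA per cell in that phase cannot be told apart.

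Over all 53 genes tested, 18 were called between HCX and DMSO, 3 higher and 15 lower (28.3% lower), beside 19.2% of all genes tested called in either direction, 5.73% higher and 13.5% lower. Among abundant genes, those with a mean of at least 1000 normalized counts (49 of the 53 were), 6.92% were called higher and 17.7% lower. Between HCX and LCX, 17 of the 53 were called, 5 higher and 12 lower (22.6% lower), beside 17.3% of all genes tested, 8.35% higher and 8.95% lower, and 10.3% higher and 10.9% lower among abundant genes. No cell cycle gene was called at 2-fold in either comparison, a size that 0.819% and 0.797% of all genes tested reached. The share called lower stood above the background in G2 and mitosis (52.6% against DMSO and 47.4% against LCX) and below or near it in replication (6.67% in each). As the genes were chosen with earlier results known, these shares are descriptions and carry no test.

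The deposited DMSO libraries stood 2.93% above the other 6 by relative log expression (RLE), a scaling on the median ratio of all genes, and the median log2 fold change of all genes between HCX and DMSO was -0.041. With RLE scaling this median was 0.00080, and the share of all called genes that were lower went from 70.2% to 50.3%. The cell cycle genes called against DMSO were then 4 higher and 11 lower (against 8.48% higher and 8.57% lower of all genes tested), and in G2 and mitosis 7 of 19 were lower. Scaling by library size gave 5 higher and 8 lower, beside 9.92% higher and 7.33% lower of all genes tested. In G2 and mitosis 5 of 19 were then lower (26.3%). Limma-voom also scales each library by its total, so it is not independent of library size scaling. With limma-voom 5 were higher and 7 lower, with 4 of 19 lower in G2 and mitosis. Beside these, limma-voom called 1301 higher and 930 lower of all 13179 genes tested. Between HCX and LCX the median of all genes was -0.00021, and RLE scaling gave 5 higher and 13 lower (beside 8.35% higher and 8.95% lower of all genes tested).

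The median log2 fold change between HCX and DMSO was -0.0050 over G1/S control, 0.022 over replication, -0.14 over G2 and mitosis and -0.16 over the spindle checkpoint. All 19 genes of G2 and mitosis and all 4 of the checkpoint had negative values against DMSO, where 59.5% of all genes tested did. With RLE scaling the 4 medians were 0.037, 0.064, -0.098 and -0.12, that of G1/S control having changed sign, and Aurkb (0.0061) and Mad2l1 (0.036) took positive values. Between HCX and LCX the medians were 0.022, 0.074, -0.14 and -0.11. There 17 of the 19 and 3 of the 4 were negative, where 50% of all genes tested were. These medians and counts describe the lists and carry no test.

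**Figure D1:**
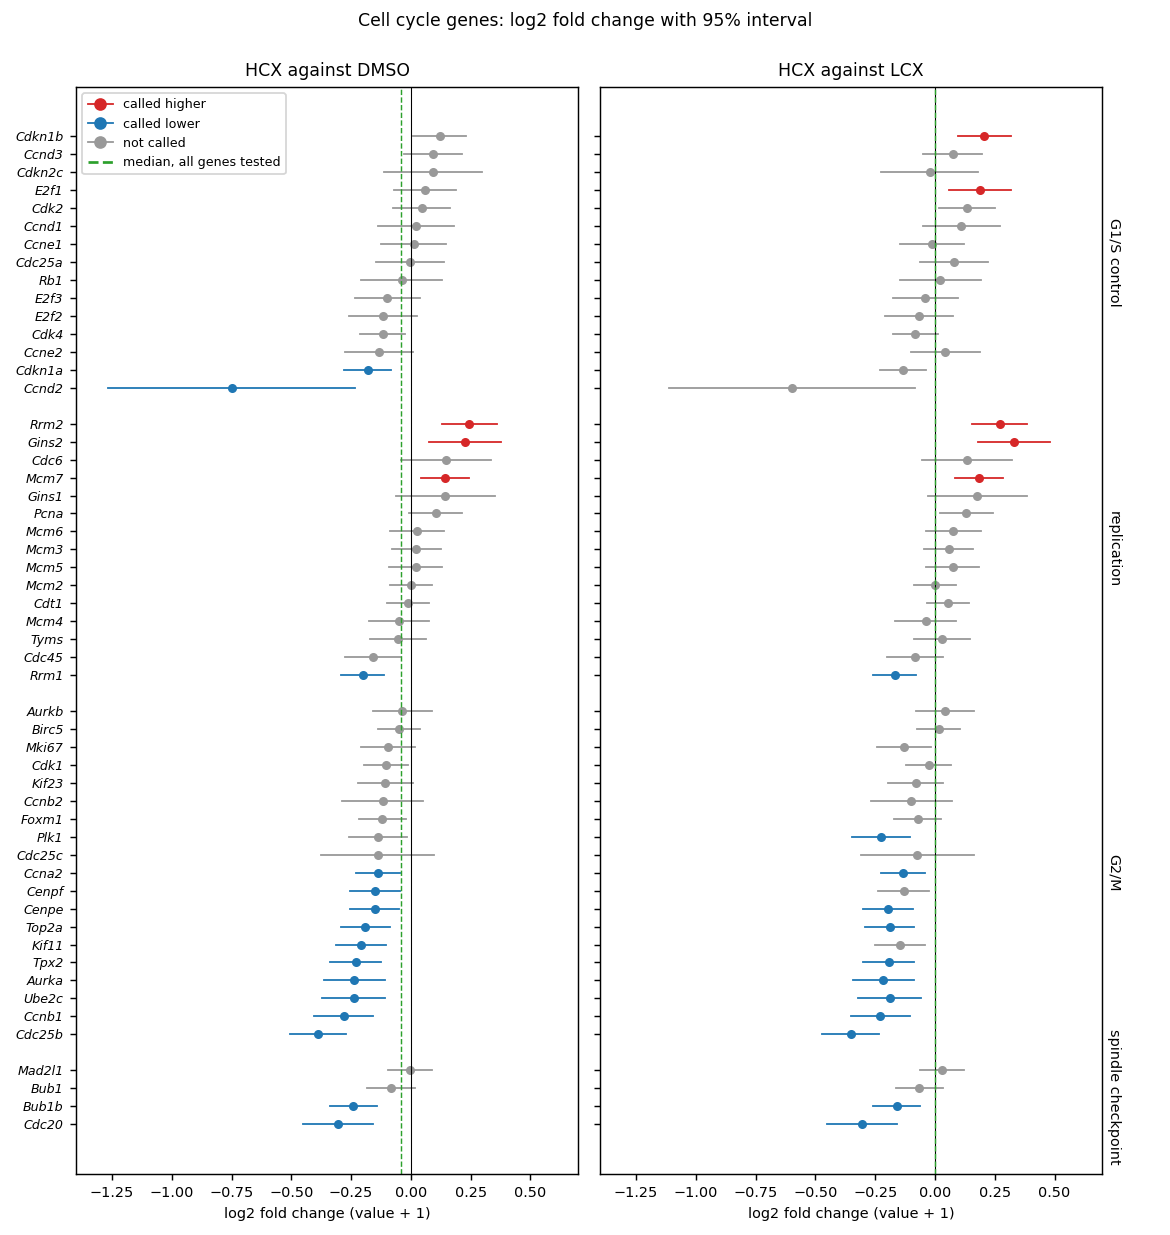
Log2 fold change of each of the 53 genes tested, on the log2(value + 1) scale, between HCX and DMSO (left) and between HCX and LCX (right), with 95% intervals of the limma fit (3 libraries per group), in blocks of G1/S control, replication, G2/M and spindle checkpoint genes. Red and blue points are genes called higher and lower, grey points are not called, and the dashed line is the median of all genes tested: all 23 points of the lower 2 blocks lie below 0 on the left, while the replication block spreads from -0.20 to 0.24.

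Taken as the mean log2 level of a phase relative to the mean of the DMSO libraries, G2 and mitosis stood at 0.016, 0.040 and -0.057 in the 3 DMSO libraries, at -0.027, -0.054 and 0.0026 in LCX and at -0.14, -0.12 and -0.23 in HCX. Replication stood at 0.037, -0.11 and 0.074 in DMSO, at -0.059, 0.0059 and -0.073 in LCX and at 0.033, 0.032 and 0.053 in HCX. For G2 and mitosis every HCX library was below every other library, whereas for replication the HCX libraries lay within the range of DMSO. The DMSO libraries differed among themselves in opposite ways: DMSO replicate 2 was the lowest of all 9 in replication and the highest in G2 and mitosis. The difference between the 2 phases (G2 and mitosis minus replication) was -0.021, 0.15 and -0.13 (DMSO), 0.032, -0.060 and 0.075 (LCX) and -0.17, -0.16 and -0.29 (HCX), so the HCX libraries were the lowest 3, with DMSO replicate 3 closest to them. In G1/S control the HCX libraries (-0.11, -0.080 and -0.0065) overlapped both other groups.

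**Figure D2:**
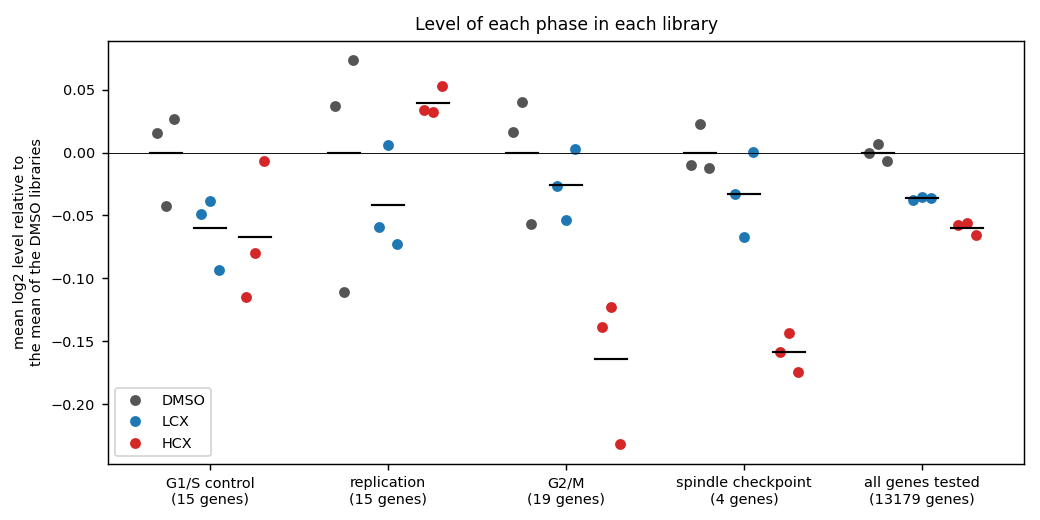
Mean log2 level of the genes of each phase in each library, relative to the mean of the 3 DMSO libraries, with all 13179 genes tested at the right. Each point is 1 library and each black line the mean of 3: in G2/M and the spindle checkpoint the 3 HCX points lie below every DMSO and LCX point, and in replication they lie within the DMSO range.

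The promoters of the genes that fell together are shown to let the sequence features of the phases be read beside the values. Promoter sequences of RefSeq (GRCm38.p6, from 250 bases before to 50 bases after a transcription start, with positions given for the start nearest to the annotated 5′ end) were found for 42 of the 54 genes, and those of Ccnd1, Ccnd2, Ccne2, Rb1, Mcm4, Gins1, Gins2, Ccna2, Cdc25c, Foxm1, Aurkb and Tpx2 were not matched. Each window was searched on both strands for the CHR (TTTGAA), the CCAAT box (CCAAT) and E2F sites written as TTTCCCGC, TTTCGCGC, TTTGCCGC or TTTGGCGC. A gene counts as having a motif where the window of any of its starts holds it. On opposite strands, E2F sites can overlap each other, and so can CCAAT boxes. The CHR, bound by MuvB complexes, stood in 10 of the 14 matched promoters of G2 and mitosis and 2 of 4 of the checkpoint, against 2 of 12 in G1/S control, 2 of 12 in replication and 20.2% of the 27025 genes in the collection. The CCAAT box, bound by the factor NF-Y, stood in 13 of 14 promoters of G2 and mitosis, 9 of 12 of replication and 41.1% of all genes. An E2F site was found in 6 of 12 promoters of replication (Cdc6, Cdt1, Mcm3, Mcm5, Mcm6 and Mcm7), 4 of 12 of G1/S control (Cdk2, Cdc25a, E2f2 and E2f3), 1 of 14 of G2 and mitosis (Cdk1) and 2.6% of all genes. These matches are letters in a window and not measured sites. Only the letters given were searched, so a gene without a match can still carry a variant of a motif.

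The stretch of 200 bases before the start is printed 5′ to 3′ on the strand of the gene, with the matched letters in capitals, for genes that fell and carry the CHR (Cdc20, Top2a, Ube2c and Kif11). The start is that of RefSeq and can lie downstream of the 5′ end of the gene in GENCODE. The stretch of Mcm7 below lies wholly inside that gene, and those of Ccnb1, Cdc20, Ube2c, Cdk1 and Rrm2 overlap theirs in part.
Cdc20, chr4:118437344-118437543 on the minus strand: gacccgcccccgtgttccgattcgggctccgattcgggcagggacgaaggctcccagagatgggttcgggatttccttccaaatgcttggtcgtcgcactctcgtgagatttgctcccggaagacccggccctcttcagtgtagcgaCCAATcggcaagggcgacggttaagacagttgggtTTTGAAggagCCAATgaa
Top2a, chr11:99024190-99024389 on the minus strand: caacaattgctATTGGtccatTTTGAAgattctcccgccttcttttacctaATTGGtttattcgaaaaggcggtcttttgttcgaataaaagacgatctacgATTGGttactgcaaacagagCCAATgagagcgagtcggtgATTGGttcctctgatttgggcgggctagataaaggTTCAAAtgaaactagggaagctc
Ube2c, chr2:164769729-164769928 on the plus strand: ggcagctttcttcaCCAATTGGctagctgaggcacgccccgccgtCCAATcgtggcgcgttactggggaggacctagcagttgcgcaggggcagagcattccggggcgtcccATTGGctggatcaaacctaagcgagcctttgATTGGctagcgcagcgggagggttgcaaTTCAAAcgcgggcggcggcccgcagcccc
Kif11, chr19:37376182-37376381 on the plus strand: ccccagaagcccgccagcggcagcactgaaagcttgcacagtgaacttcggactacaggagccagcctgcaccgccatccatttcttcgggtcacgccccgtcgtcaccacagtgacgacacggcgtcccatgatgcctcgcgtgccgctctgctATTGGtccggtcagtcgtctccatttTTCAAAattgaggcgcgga
In Cdc20 the CHR began 18 bases before the start and a CCAAT box 8 bases before it. In Kif11 the CHR, read on the other strand as TTCAAA, began 19 bases before the start, with a CCAAT box on the other strand (ATTGG) 45 bases before it. In Ube2c it began 29 bases before the start, with 6 CCAAT boxes in the window. In the window, 7 of the 10 matched genes of G2, mitosis and the checkpoint that fell against DMSO had a CHR, and so had 5 of the 8 that were not called.

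The next stretches are of Ccnb1 and Cdc25b, which fell and, of the letters searched, show only CCAAT boxes. Cdk1, which has 2 CHRs, CCAAT boxes and an E2F site and was not called, is shown with them. The CHR was searched as TTTGAA alone, so a variant of it would not be marked.
Ccnb1, chr13:100786487-100786686 on the minus strand: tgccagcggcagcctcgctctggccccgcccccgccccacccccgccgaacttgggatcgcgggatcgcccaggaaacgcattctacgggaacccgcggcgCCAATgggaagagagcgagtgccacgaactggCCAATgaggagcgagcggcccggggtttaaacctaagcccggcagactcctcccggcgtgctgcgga
Cdc25b, chr2:131186748-131186947 on the plus strand: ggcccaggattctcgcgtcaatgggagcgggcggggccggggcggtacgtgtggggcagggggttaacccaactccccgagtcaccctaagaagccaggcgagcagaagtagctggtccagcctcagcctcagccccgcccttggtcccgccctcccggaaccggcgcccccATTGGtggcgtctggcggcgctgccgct
Cdk1, chr10:69352913-69353112 on the minus strand: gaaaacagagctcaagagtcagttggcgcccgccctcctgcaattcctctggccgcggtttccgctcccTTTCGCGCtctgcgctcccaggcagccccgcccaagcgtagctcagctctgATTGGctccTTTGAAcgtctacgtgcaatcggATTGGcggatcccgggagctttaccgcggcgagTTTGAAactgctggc
For contrast, Mcm7 and Mcm6 carry E2F sites, and only Mcm7 rose. Rrm2 rose too and shows 1 CCAAT box.
Mcm7, chr5:138171884-138172083 on the minus strand: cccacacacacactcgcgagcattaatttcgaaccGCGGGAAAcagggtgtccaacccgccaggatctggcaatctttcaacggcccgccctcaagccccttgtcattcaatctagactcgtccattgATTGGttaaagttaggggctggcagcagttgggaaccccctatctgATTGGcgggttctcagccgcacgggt
Mcm6, chr1:128359706-128359905 on the minus strand: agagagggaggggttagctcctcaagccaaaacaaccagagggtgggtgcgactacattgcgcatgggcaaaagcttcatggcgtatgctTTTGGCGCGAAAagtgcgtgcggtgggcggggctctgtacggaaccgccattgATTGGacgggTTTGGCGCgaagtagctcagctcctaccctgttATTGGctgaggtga
Rrm2, chr12:24708054-24708253 on the plus strand: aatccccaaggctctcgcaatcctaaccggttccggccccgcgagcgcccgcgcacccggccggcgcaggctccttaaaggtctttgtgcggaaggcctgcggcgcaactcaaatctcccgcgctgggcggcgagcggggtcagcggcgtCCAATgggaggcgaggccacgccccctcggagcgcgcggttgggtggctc
The E2F sites of Mcm6 included a pair that overlap on opposite strands, which began 110 and 106 bases before the start. That of Mcm7 began 165 bases before the start, and a second one lay within the 50 bases after it, outside the stretch shown.

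Coordinates below are those of whole genes in GRCm38 (GENCODE release M21), and all 54 genes are annotated as protein coding. In the G1 circuit, the D-type cyclin genes differed widely in level. Per kilobase of transcript, Ccnd1 stood at 2186 ± 327 normalized counts in DMSO (SD, n = 3 libraries), Ccnd3 at 1071 ± 64.5 and Ccnd2 at 14.5 ± 2.77. Of their partner kinases, Cdk4 stood at 8590 ± 485, the highest level per kilobase of all 54 genes, and Cdk6 at 0.53 ± 0.23, the lowest. Cdk6 read between 1.94 and 10.5 normalized counts over the 9 libraries and was not tested.

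Ccnd1, the cyclin D1 gene, which links growth signals to G1, read 8503, 6821 and 9203 normalized counts (DMSO), 7607, 7948 and 7339.8 (LCX) and 7957, 7811 and 8971 (HCX). The groups overlapped, and its log2 fold change between HCX and DMSO was 0.021 (SE 0.08, adjusted p = 0.887). Ccnd2, which encodes cyclin D2, read 78.3, 111 and 85.01 normalized counts (DMSO), 83.3, 83.2 and 77.6 (LCX) and 36.6, 56.9 and 73.1 (HCX). All 3 HCX values lay below all others, and against DMSO it fell, with a log2 fold change of -0.75 (SE 0.25, adjusted p = 0.038), the largest change of any cell cycle gene here. At this low level the call did not hold: it ended with RLE scaling (adjusted p = 0.0541), with scaling by library size and limma-voom, and without any one of DMSO replicates 2 or 3, LCX replicates 1 or 2 and HCX replicates 1 or 2 (adjusted p up to 0.182), and against LCX the value was -0.60 (SE 0.25, adjusted p = 0.103). Ccnd3 (cyclin D3) read 2166, 2419 and 2203 normalized counts (DMSO), 2178, 2359.7 and 2334 (LCX) and 2538, 2414 and 2285 (HCX), with overlapping groups and a log2 fold change of 0.093 (SE 0.06, adjusted p = 0.292) against DMSO.

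Cdk4, the kinase partner of the D-type cyclins, read 17674, 16622 and 18612 normalized counts (DMSO), 17465, 17126 and 16985 (LCX) and 16572, 15811 and 16308 (HCX). Every HCX library was below every other, yet neither comparison was called. The log2 fold change was -0.12 (SE 0.04, adjusted p = 0.0708) against DMSO and -0.083 (SE 0.04, adjusted p = 0.218) against LCX. Ccne1 and Ccne2, which encode the E-type cyclins that fire at the G1 to S boundary, read 1205, 1146 and 1185 normalized counts (DMSO), 1197, 1178 and 1218 (LCX) and 1191, 1114 and 1262 (HCX), and 2731, 2241 and 2492 normalized counts (DMSO), 2329.6, 2245 and 2009.8 (LCX) and 2320.3, 2179 and 2278 (HCX), respectively. Neither was called in any comparison. Cdk2, the kinase of cyclins E and A, read 2143, 2209 and 2461 normalized counts (DMSO), 2150.3, 2119.9 and 2126 (LCX) and 2308, 2299 and 2407 (HCX). Its HCX values lay above those of LCX and overlapped those of DMSO (0.13, SE 0.06, adjusted p = 0.112 against LCX).

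Of the 3 inhibitor genes, Cdkn1a fell against DMSO and Cdkn1b rose against LCX. Cdkn1a (chr17:29090976-29100727), which encodes p21, an inhibitor of cyclin-dependent kinases and a target of p53, read 4635, 4839 and 4663 normalized counts (DMSO), 4589.7, 4606 and 4469 (LCX) and 4230.0, 4292 and 3948 (HCX). Its HCX values lay below all others, and it fell against DMSO (-0.18, SE 0.05, adjusted p = 0.00954) and missed the threshold against LCX (-0.13, SE 0.05, adjusted p = 0.0543). The call against DMSO held with RLE scaling (adjusted p = 0.0433) and without any one library (adjusted p up to 0.0415), and ended with scaling by library size and with limma-voom. Cdkn1b (chr6:134920401-134925513), which encodes p27, an inhibitor linked to exit from the cycle, read 3081, 2757 and 2810.3 normalized counts (DMSO), 2718, 2743 and 2676 (LCX) and 3019, 3086 and 3288 (HCX). Here the HCX values lay above those of LCX, and Cdkn1b rose against LCX (0.21, SE 0.05, adjusted p = 0.0115), while DMSO replicate 1 overlapped HCX and the value against DMSO was 0.12 (SE 0.05, adjusted p = 0.125), and 0.16 with an adjusted p of 0.0425 with RLE scaling. The call against LCX ended without LCX replicate 3 or HCX replicate 3 (adjusted p up to 0.0513). Cdkn2c, which encodes p18, an inhibitor of CDK4 and CDK6, read 443, 495 and 427 normalized counts (DMSO), 516, 461 and 499 (LCX) and 486, 526 and 444 (HCX), with overlapping groups.

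Rb1, the retinoblastoma gene itself, read 1126, 999 and 1061 normalized counts (DMSO), 1052, 1105 and 904 (LCX) and 1109, 970.4 and 1022 (HCX), with groups that overlapped. E2f1, an activating E2F factor, read 2867, 2654 and 3091 normalized counts (DMSO), 2632, 2680.5 and 2553 (LCX) and 2824, 2885 and 3272 (HCX). The HCX libraries lay above those of LCX, and E2f1 rose against LCX (0.19, SE 0.06, adjusted p = 0.0425) but had a value of 0.060 (SE 0.06, adjusted p = 0.545) against DMSO, where the groups overlapped. That call ended without DMSO replicate 1, LCX replicates 1, 2 or 3 or HCX replicates 2 or 3 (adjusted p up to 0.195). E2f2 read 3672, 3174 and 3731 normalized counts (DMSO), 3440.4, 3440.2 and 3314 (LCX) and 2958, 3169.6 and 3631 (HCX), and E2f3 read 2512, 2085 and 2311 normalized counts (DMSO), 2281, 2236 and 2103 (LCX) and 2054, 2285 and 2099 (HCX). Both encode activating E2F factors too, and neither was called. Cdc25a, which encodes the phosphatase that activates CDK2, read between 1683 and 2114 over the 9 libraries and was not called.

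In replication, the MCM2 to MCM7 proteins form the ring that is loaded at origins and unwinds DNA, and their genes stood at 1413 ± 151 (Mcm4) to 3167 ± 80.0 (Mcm2) normalized counts per kilobase in DMSO (SD, n = 3 libraries). Mcm7 (chr5:138164583-138172422) read 5745, 5539.6 and 6163 normalized counts (DMSO), 5707, 5776 and 5473 (LCX) and 6496, 6596 and 6170.4 (HCX). The HCX values lay above all others, though HCX replicate 3 was close to DMSO replicate 3, and Mcm7 rose against DMSO (0.14, SE 0.05, adjusted p = 0.0416) and LCX (0.18, SE 0.05, adjusted p = 0.0124). The call against DMSO ended without DMSO replicates 1 or 2, any one LCX library or HCX replicates 1 or 2 (adjusted p up to 0.146), and that against LCX without LCX replicate 3 or HCX replicate 2 (adjusted p up to 0.0716). Of the stretches of 31 bases in Mcm7 transcripts, 26.8% occur in other genes too, and how such reads were counted is not given in the sources used here, so part of its value is uncertain.

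The other 5 ring subunits were not called in either comparison, and none had an unadjusted p under 0.05. Mcm2 read 10892, 10374 and 10763 normalized counts (DMSO), 10302, 10835 and 10921 (LCX) and 10728, 10553 and 10759 (HCX), a log2 fold change between HCX and DMSO of 0.00078 (SE 0.04, adjusted p = 0.992), with a 95% interval of -0.086 to 0.088. Mcm3 read 7333, 6791 and 7795 normalized counts (DMSO), 7235, 7112 and 7014 (LCX) and 7165, 7371 and 7697 (HCX), and Mcm5 read 6657, 6220.2 and 7263 normalized counts (DMSO), 6197, 6857 and 6325 (LCX) and 6856, 6676 and 6851 (HCX). In both, DMSO replicate 3 was high or highest and DMSO replicate 2 lowest or near it. Mcm6 read 7492, 6456 and 7222 normalized counts (DMSO), 6547, 7228 and 6627 (LCX) and 7092, 6970.1 and 7437 (HCX), and Mcm4 read 5336, 4447 and 5433 normalized counts (DMSO), 4937, 5201 and 4905 (LCX) and 4868, 4771 and 4996 (HCX), again with DMSO replicate 2 the lowest of the 9. Their groups overlapped in both comparisons with HCX. The log2 fold changes of these 5 ranged from -0.051 to 0.025 against DMSO and from -0.039 to 0.076 against LCX.

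Loading and firing of origins need further proteins. Cdc6 and Cdt1, which load the ring, had log2 fold changes of 0.14 (SE 0.09, adjusted p = 0.284) and -0.013 (SE 0.04, adjusted p = 0.868) against DMSO and were not called against LCX either. Gins2 (chr8:120578633-120589304), which encodes a subunit of the GINS complex that completes the active helicase, read 1222, 1267 and 1364 normalized counts (DMSO), 1180.2, 1292 and 1116 (LCX) and 1420.0, 1461 and 1633 (HCX). All HCX values lay above all others, and Gins2 rose against DMSO (0.23, SE 0.07, adjusted p = 0.032) and, with the largest rise among these genes, against LCX (0.33, SE 0.07, adjusted p = 0.00358). The call against LCX held without any one library (adjusted p up to 0.0306), and that against DMSO ended without DMSO replicates 1 or 2 or HCX replicates 2 or 3 (adjusted p up to 0.143). Gins1, another GINS subunit, had a value of 0.14 (SE 0.10, adjusted p = 0.337) against DMSO and 0.18 (SE 0.10, adjusted p = 0.235) against LCX. Cdc45, the third partner of the helicase, had a value of -0.16 (SE 0.06, adjusted p = 0.0518) against DMSO, and it was not called. Pcna, the sliding clamp of the polymerases, had 0.10 (SE 0.05, adjusted p = 0.19) against DMSO and 0.13 (SE 0.05, adjusted p = 0.1) against LCX.

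The 2 subunits of ribonucleotide reductase, the enzyme that makes deoxyribonucleotides, moved in opposite directions. Rrm1 (chr7:102441695-102469771), the large catalytic subunit, read 12785, 12273 and 12716 normalized counts (DMSO), 12103, 12775 and 12042 (LCX) and 11008, 11202 and 10626 (HCX). Every HCX value lay below all others, and Rrm1 fell against DMSO (-0.20, SE 0.04, adjusted p = 0.00247) and against LCX (-0.17, SE 0.04, adjusted p = 0.00947). Rrm2 (chr12:24708241-24714146), the small subunit that holds the radical, read 4660.1, 3971 and 4479.7 normalized counts (DMSO), 4310.4, 4375 and 4153 (LCX) and 5284, 4949 and 5259 (HCX). All HCX values lay above all others, and Rrm2 rose against DMSO (0.24, SE 0.05, adjusted p = 0.00409) and against LCX (0.27, SE 0.05, adjusted p = 0.00199). The calls of Rrm1 against DMSO and of Rrm2 in both comparisons held in all 18 alternatives, and that of Rrm1 against LCX in 17, ending without LCX replicate 2 (adjusted p = 0.0662). As percent changes against DMSO, these were -13.1% for Rrm1 and 18.4% for Rrm2. Tyms, the thymidylate synthase gene, had a value of -0.052 (SE 0.06, adjusted p = 0.559) against DMSO and was not called.

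**Figure D3:**
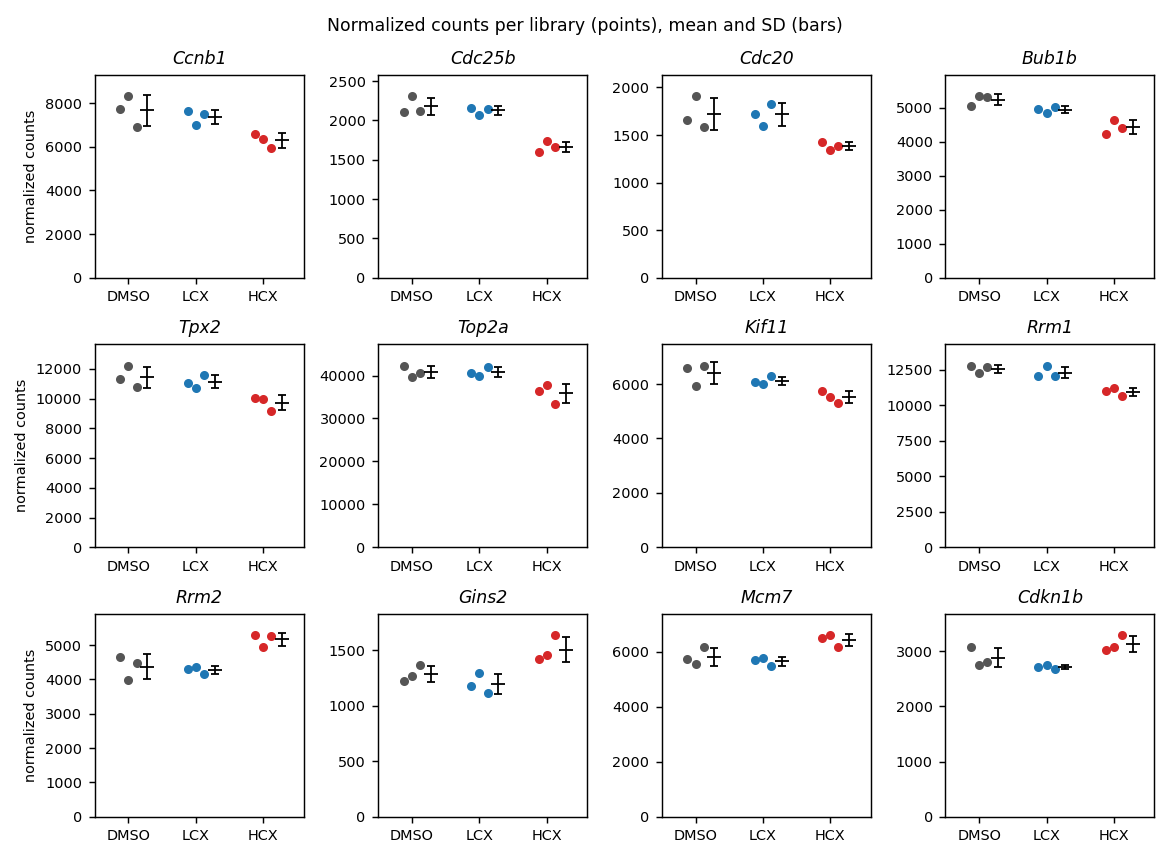
Normalized counts of 12 genes called in HCX against DMSO, LCX or both, with each library as a point and the mean and SD of 3 libraries as bars at the right of each group, on axes that start at 0. In the upper 2 rows the HCX libraries lie below all others, and in the lower row they lie above them for Rrm2, Gins2 and Mcm7, while for Cdkn1b DMSO replicate 1 reaches the HCX range.

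Among the cyclins of G2 and mitosis, Ccnb1 (chr13:100778650-100786570), which encodes cyclin B1, the partner of CDK1 at mitotic entry, read 7755, 8316 and 6929 normalized counts (DMSO), 7635, 6993 and 7492 (LCX) and 6575, 6376 and 5930.3 (HCX). The HCX values were the lowest 3 of the 9, and Ccnb1 fell against DMSO (-0.28, SE 0.06, adjusted p = 0.00236) and LCX (-0.23, SE 0.06, adjusted p = 0.0109). The call against DMSO held in all 18 alternatives, and that against LCX ended without LCX replicate 1 or 3 (adjusted p up to 0.0617). Other genes hold 27.7% of the stretches of 31 bases in its transcripts, with the same uncertainty as for Mcm7. Ccna2, the cyclin A2 gene, whose protein acts in S phase and G2, read 8588, 7972 and 7845 normalized counts (DMSO), 8185, 8179 and 7953 (LCX) and 7522, 7361 and 7260.3 (HCX). It fell against DMSO (-0.14, SE 0.04, adjusted p = 0.0316) and LCX (-0.14, SE 0.04, adjusted p = 0.0404) with groups that did not overlap, although both calls ended with scaling by library size and with limma-voom, and the call against DMSO ended with RLE scaling (adjusted p = 0.139) and without DMSO replicate 1 or HCX replicates 2 or 3, and that against LCX without any one LCX library or HCX replicates 2 or 3 (adjusted p up to 0.161 and 0.133). Ccnb2 had a value of -0.12 (SE 0.08, adjusted p = 0.337) against DMSO and Cdk1, the mitotic kinase itself, one of -0.10 (SE 0.04, adjusted p = 0.109), and neither was called.

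Cdc25b (chr2:131186949-131198497), the phosphatase that starts the activation of CDK1, showed the largest fall of any abundant gene of the set. It read 2110.3, 2306 and 2118 normalized counts (DMSO), 2164, 2064 and 2150.3 (LCX) and 1599.8, 1732 and 1661 (HCX). The gap between the highest HCX library and the lowest of the other 6 was wide beside the spread within groups, and Cdc25b fell against DMSO (-0.39, SE 0.06, adjusted p = 8.41e-05) and LCX (-0.35, SE 0.06, adjusted p = 0.000245). As percent changes these were -23.5% and -21.7%. Both calls held in all 18 alternatives. Its relative Cdc25c had a value of -0.14 (SE 0.11, adjusted p = 0.425) against DMSO. Foxm1, the factor that drives G2 genes, had one of -0.12 (SE 0.05, adjusted p = 0.078), and neither was called.

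Mitotic kinases and spindle proteins fell in part. Aurka, which encodes Aurora A, a kinase of the spindle poles, read 3069, 3228 and 2767 normalized counts (DMSO), 3034, 2760.4 and 3133 (LCX) and 2634, 2597 and 2448 (HCX). Tpx2 (chr2:152847964-152895321), which encodes the protein that activates Aurora A on microtubules, read 11299, 12206 and 10787 normalized counts (DMSO), 11043, 10739 and 11596 (LCX) and 10056, 9993 and 9153 (HCX). In both, all HCX values lay below all others. Aurka fell against DMSO (-0.24, SE 0.06, adjusted p = 0.0105) and LCX (-0.22, SE 0.06, adjusted p = 0.0197). Tpx2 fell against DMSO (-0.23, SE 0.05, adjusted p = 0.0037) and LCX (-0.19, SE 0.05, adjusted p = 0.0133), and its call against DMSO held in all 18 alternatives, while that of Aurka ended with limma-voom (adjusted p = 0.0524). Against LCX the call of Aurka ended without LCX replicates 1 or 3 or HCX replicate 3, and that of Tpx2 without LCX replicate 3 or HCX replicate 3 (adjusted p up to 0.11 and 0.0831). Plk1, the Polo kinase, read 3385, 3722 and 3081 normalized counts (DMSO), 3587, 3488 and 3735 (LCX) and 3101, 3096 and 3035 (HCX). It fell against LCX (-0.23, SE 0.06, adjusted p = 0.0108), a call that ended without LCX replicate 3 (adjusted p = 0.0628), while DMSO replicate 3 overlapped HCX and the value against DMSO was -0.14 (SE 0.06, adjusted p = 0.105). Aurkb and Birc5, which encode Aurora B and survivin of the chromosomal passenger complex, were not called, with values of -0.035 (SE 0.06, adjusted p = 0.724) and -0.050 (SE 0.04, adjusted p = 0.457) against DMSO.

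Kif11 (chr19:37376403-37421859), which encodes the kinesin that pushes the spindle poles apart, read 6582, 5927 and 6669 normalized counts (DMSO), 6063, 5987 and 6287 (LCX) and 5745, 5517 and 5317 (HCX). All HCX values lay below all others, and Kif11 fell against DMSO (-0.21, SE 0.05, adjusted p = 0.00644) in all 18 alternatives, and its value against LCX was -0.15 (SE 0.05, adjusted p = 0.0504), just outside the threshold. Cenpe, the kinesin of kinetochores, read 5177, 4832 and 4856 normalized counts (DMSO), 5006, 4879 and 5461 (LCX) and 4466, 4538 and 4369 (HCX). All HCX values lay below all others, and it fell against DMSO (-0.15, SE 0.05, adjusted p = 0.0365) and LCX (-0.20, SE 0.05, adjusted p = 0.00968). Cenpf, a kinetochore protein gene, read 8394, 8267 and 7949 normalized counts (DMSO), 7929.6, 7615 and 8789.8 (LCX) and 7443, 7620.0 and 7122 (HCX), and HCX lay below DMSO and overlapped LCX. Cenpf fell against DMSO (-0.15, SE 0.05, adjusted p = 0.0438), with a value of -0.13 (SE 0.05, adjusted p = 0.0815) against LCX. With RLE scaling the calls of Cenpe and Cenpf against DMSO ended (adjusted p = 0.136 and 0.157), as they did with scaling by library size and limma-voom, and each also ended without DMSO replicate 1, LCX replicate 1 or any one HCX library, and for Cenpf without DMSO replicate 2. The call of Cenpe against LCX ended without LCX replicate 3 (adjusted p = 0.08). Kif23, a kinesin of cytokinesis, had a value of -0.11 (SE 0.06, adjusted p = 0.184) against DMSO and was not called.

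Top2a (chr11:98992943-99024189), which encodes the topoisomerase that untangles chromosomes before they separate, read 42258, 39659 and 40560.3 normalized counts (DMSO), 40560.2, 39890.0 and 42001 (LCX) and 36494, 37690.5 and 33274 (HCX). Its level per kilobase was 7820 ± 253 in DMSO (SD, n = 3 libraries), and all HCX values lay below all others. Top2a fell against DMSO (-0.19, SE 0.05, adjusted p = 0.0104) and LCX (-0.19, SE 0.05, adjusted p = 0.0114). The first call ended with scaling by library size and with limma-voom, and the second without LCX replicate 3 (adjusted p = 0.069). Ube2c, the ubiquitin-conjugating enzyme of the anaphase-promoting complex, read 3798, 4292 and 3504 normalized counts (DMSO), 3812, 3555 and 3809.9 (LCX) and 3476, 3196 and 3129.8 (HCX). Its HCX values lay below all others, with HCX replicate 1 close to DMSO replicate 3, and it fell against DMSO (-0.24, SE 0.06, adjusted p = 0.0122) and LCX (-0.19, SE 0.06, adjusted p = 0.0436). The call against DMSO ended without DMSO replicate 2, and that against LCX without DMSO replicate 1, any one LCX library or HCX replicates 2 or 3 (adjusted p up to 0.0647 and 0.145), and both ended with scaling by library size and with limma-voom. Mki67, which encodes the proliferation marker Ki-67, had -0.10 (SE 0.05, adjusted p = 0.225) against DMSO and -0.13 (SE 0.05, adjusted p = 0.104) against LCX, and it was not called.

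Of the spindle checkpoint, which holds anaphase until every chromosome is attached, Cdc20 (chr4:118432901-118437352), the activator of the anaphase-promoting complex and the target of the checkpoint, read 1658, 1907 and 1588 normalized counts (DMSO), 1719, 1599 and 1831 (LCX) and 1430.3, 1346 and 1383 (HCX). All HCX values lay below all others, and Cdc20 fell against DMSO (-0.30, SE 0.07, adjusted p = 0.0047) and LCX (-0.31, SE 0.07, adjusted p = 0.00513), a percent change of -19.1% in each. Both calls held in all 18 alternatives. Other genes hold 25.5% of the stretches of 31 bases in its transcripts, which leaves the same uncertainty. Bub1b (chr2:118598211-118641591), which encodes the checkpoint kinase-like protein BubR1, read 5052, 5342 and 5316 normalized counts (DMSO), 4977, 4836 and 5039.6 (LCX) and 4242, 4655 and 4405 (HCX). It fell against DMSO (-0.24, SE 0.05, adjusted p = 0.00141) and LCX (-0.16, SE 0.05, adjusted p = 0.0237), again with no overlap. The first call held in all 18 alternatives, and the second ended without LCX replicates 1 or 3 or HCX replicate 1 (adjusted p up to 0.0978). Bub1 (-0.084, SE 0.05, adjusted p = 0.236) and Mad2l1 (-0.0060, SE 0.04, adjusted p = 0.949) were not called against DMSO, so 2 of the 4 checkpoint genes moved.

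The genes called lower against DMSO (15) and LCX (12) had 11 in common, 73.3% of the first list and 91.7% of the second, and of those called higher (3 and 5) all 3 of the first were in the second. The HCX libraries are the same in both, so this overlap is a description. Without LCX replicate 3, the calls against LCX dropped from 17 to 5 (Gins2, Rrm1, Rrm2, Cdc25b and Cdc20), and in G2 and mitosis from 9 to 1. Without LCX replicate 1 they were 11, with 5 in G2 and mitosis, and without HCX replicate 3 these were also 5. The calls of all genes against LCX went from 1179 to 728 lower and from 1101 to 641 higher without LCX replicate 3. The median of G2 and mitosis against LCX stayed between -0.16 and -0.12 without any one library. Against DMSO, the count lower was 12 to 17 without any one library and the count higher 1 to 3, with 1 without DMSO replicates 1 or 2 or HCX replicate 2.

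The HCX libraries lay wholly below those of DMSO in 19 of the 53 genes (35.8%, beside 21.8% of all genes tested) and wholly above in 3 (5.66%, beside 11%; 32.8% of all genes tested did not overlap). Against LCX they lay wholly below in 19 (beside 18.2% of all genes tested) and wholly above in 9 (17%, beside 18.3%; 36.5% of all genes tested did not overlap). Of the 19 genes of G2 and mitosis, 13 lay wholly below DMSO and 12 wholly below LCX. For a single gene, the smallest p of an exact permutation test of 3 libraries against 3 is 0.1.

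Between LCX and DMSO, 0 of the 53 genes were called by limma, as were 0% of all genes tested, and limma-voom also called 0. At an unadjusted p under 0.05 there was 1 of the 53, Ccne2 (-0.18, SE 0.07, unadjusted p = 0.0164, adjusted p = 0.801), beside 807 of all 13179 genes. With RLE scaling there was again 1 of the 53, then in G2 and mitosis with 0 in G1/S control, beside 427 of all genes, so Ccne2 did not keep this level. Of the 53 genes, 52 had 95% intervals within 1.5-fold of no change and 53 within 2-fold. The LCX libraries lay wholly below those of DMSO in 7 genes (13.2%, beside 11.1% of all genes tested) and wholly above in none (beside 1.75%). The medians were -0.062 in G1/S control, -0.035 in replication, -0.034 in G2 and mitosis and -0.027 in the checkpoint, beside -0.039 over all genes, and with RLE scaling they lay at -0.020, 0.0067, 0.0075 and 0.015. In Cdc25b the log2 fold change between LCX and DMSO was -0.03 (95% interval -0.15 to 0.08), and in Cdc20 0.00084 (-0.15 to 0.15).

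The genes spanned a wide range of levels, from 0.53 to 8590 normalized counts per kilobase in DMSO. After Cdk4 and Top2a stood Birc5 (6639 ± 53.7, SD, n = 3 libraries), Pcna (4401 ± 269) and Ube2c (3997 ± 411), and the ranges of Pcna and Ube2c over the 3 libraries overlapped. Among the inhibitors, Cdkn1a stood at 2266 ± 53.1, Cdkn1b at 633 ± 38.2 and Cdkn2c at 184 ± 14.2, and Rb1 at 228 ± 13.6. Over all libraries the median of the 53 genes was 3619 normalized counts, against 1139 over all genes tested.

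**Figure D4:**
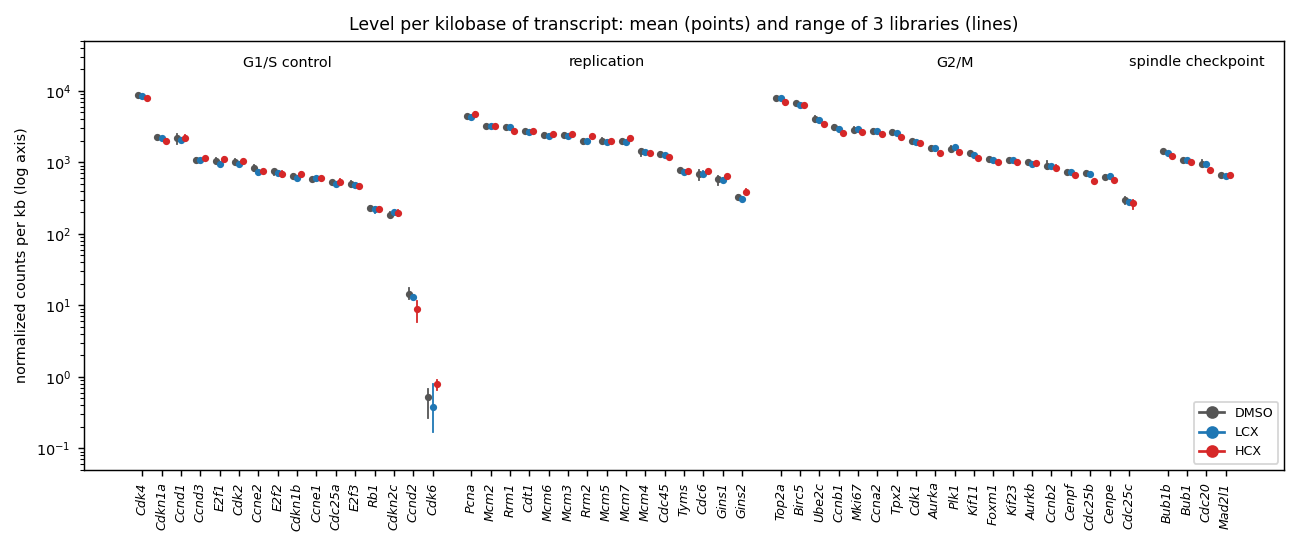
Level of each of the 54 genes in normalized counts per kilobase of its longest principal transcript, on a log axis, with points for the mean and lines for the range of 3 libraries in DMSO, LCX and HCX, ordered within each phase by the DMSO level. Cdk4 and Top2a lead, and Ccnd2 and Cdk6 lie far below the rest.

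Other genes of the pathway, 181 in 11 lists, of which 179 were tested, gave 7 higher and 32 lower against DMSO (17.9% lower, beside 13.5% of all genes tested) and 9 higher and 17 lower against LCX (9.5% lower, beside 8.95%), so as a whole they stood near the background. The kinetochore, spindle and cytokinesis list, 42 further genes of mitosis, held most of those called lower: 18 fell and 1 rose against DMSO, with a median log2 fold change of -0.14 (42.9% lower), and 11 fell and 2 rose against LCX, with a median of -0.11 (26.2% lower). This list was also chosen with earlier results of these data known, so it is not independent of them. Counts, shares and medians of all 11 lists were made with the deposited values alone. Their dependence on the other scalings was not examined. Nusap1, a spindle-associated protein gene, fell against DMSO (-0.35, SE 0.06, limma's adjusted p = 0.000275) and LCX (-0.33, adjusted p = 0.000559). Kif22, a chromosome-arm kinesin (-0.29 and -0.28), and Anln, the cytokinesis scaffold anillin (-0.27 and -0.21), fell in both comparisons as well. Of 18 condensin and cohesin genes 3 fell against DMSO (16.7%, near the 13.5% of all genes tested), and among them Espl1, the separase gene that cleaves cohesin, fell against both (-0.24 and -0.24).

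Among genes of the replication machinery outside the 15, the share called lower against DMSO ran from 12.5% (nucleotide supply) to 18.8% (origin licensing and firing), beside 13.5% of all genes tested. Of 16 origin licensing and firing genes, 3 fell and none rose (beside 5.73%) against DMSO. Against LCX 1 of these 16 fell and 1 rose (6.25% each, beside 8.95% and 8.35%). Recql4, a helicase of replication start, fell from 4585 ± 202 normalized counts in DMSO to 3516 ± 84.0 in HCX (SD, n = 3 libraries; -0.38, SE 0.05, adjusted p = 1.16e-05, limma), with 4325 ± 2.38 in LCX. The origin recognition genes Orc2 (-0.22) and Orc5 (-0.21) fell against DMSO, and the call of Orc5 ended with RLE scaling (adjusted p = 0.0644). Neither was called against LCX (adjusted p = 0.115 and 0.151). Of 23 polymerase and fork genes 2 rose (8.7%, beside 5.73% of all genes tested) and 3 fell (13%, beside 13.5%) against DMSO, and 3 rose (13%, beside 8.35%) and none fell against LCX. Pole2, a subunit of the leading-strand polymerase, rose against DMSO (0.35, adjusted p = 0.00127) and LCX (0.46, adjusted p = 9.04e-05), as did the primase gene Prim2 (0.19 and 0.30). Rpa3, a subunit of the single-strand binding protein, fell against DMSO (-0.23), and Tk1, the thymidine kinase gene, was 1 of 8 further genes of nucleotide supply to do so (-0.22). Neither Rpa3 nor Tk1 was called against LCX (adjusted p = 0.202 and 0.0927).

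Among regulators, E2f5, which encodes an E2F factor that works with the pocket proteins in repression, rose from 748 ± 25.8 normalized counts in DMSO and 708 ± 23.7 in LCX to 1011 ± 70.0 in HCX (SD, n = 3 libraries; 0.43 against DMSO, adjusted p = 0.000518, and 0.51 against LCX, adjusted p = 0.000111, limma), the 1 call among 14 genes of the RB, E2F and DREAM list. That 1 call was 7.14% of its list in each comparison, near the share of all genes tested called higher (5.73% against DMSO and 8.35% against LCX). The 4 other inhibitors of cyclin-dependent kinases tested were not called, and 1 of them had an unadjusted p under 0.05 against LCX. Of 13 p53 targets tested 1 fell, Gadd45a, a stress gene that restrains the G2 kinase (-0.31 against DMSO and against LCX). That is 7.69% lower, below the 13.5% (against DMSO) and 8.95% (against LCX) of all genes tested. Of 12 damage and entry kinases 1 fell against DMSO, Chek2 (-0.28), which is 8.33%, also below 13.5%. Of 20 genes of the anaphase-promoting complex and related ubiquitin ligases, 1 rose and 1 fell in each comparison (5% each), below the shares of all genes tested. Anapc13, a small subunit of the anaphase-promoting complex, rose (0.37 and 0.34) and its large subunit gene Anapc1 fell (-0.21 and -0.17).

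In the MYC family, Mycn rose from 361 ± 57.1 normalized counts in DMSO and 333 ± 22.2 in LCX to 540 ± 69.2 in HCX (SD, n = 3 libraries; 0.58 against DMSO, adjusted p = 0.0025, and 0.69 against LCX, adjusted p = 0.000675, limma). Mycl fell from 828 ± 71.5 to 619 ± 79.3 (-0.42 against DMSO, adjusted p = 0.00348, and -0.54 against LCX). Mxd4, which encodes an antagonist of MYC, rose against DMSO (0.32, adjusted p = 0.0477). Of the 9 genes of this list, 2 rose (22.2%, beside 5.73% of all genes tested) and 1 fell (11.1%, beside 13.5%) against DMSO. Against LCX 1 rose and 1 fell (11.1% each, beside 8.35% and 8.95%).

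**Figure D5:**
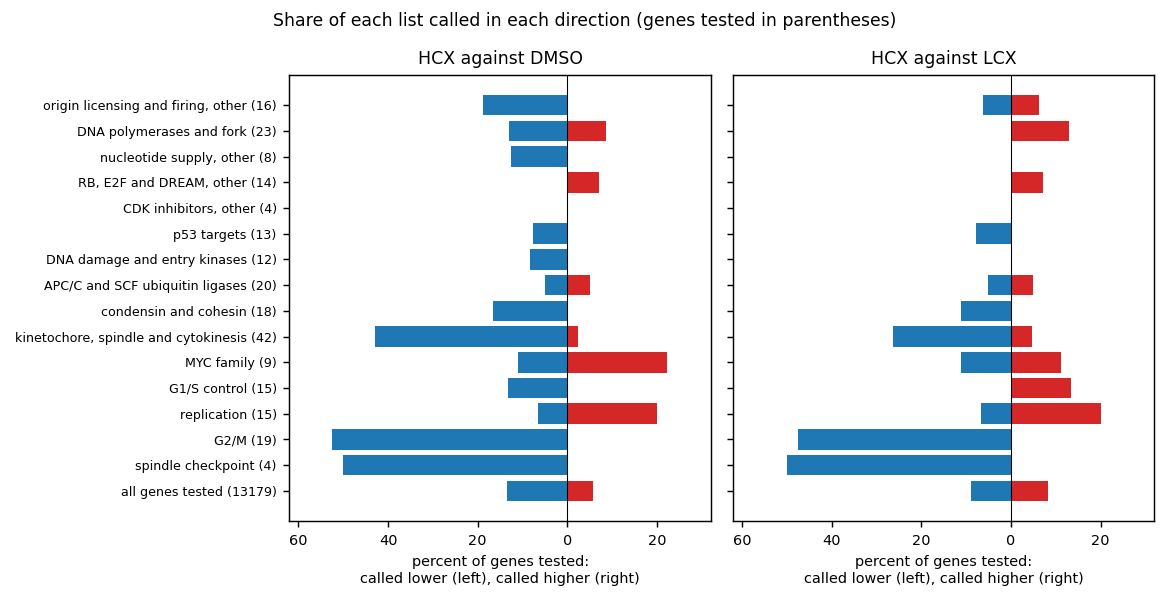
Percent of the genes tested in each list that limma called lower (bars to the left) or higher (bars to the right) in HCX against DMSO and against LCX, for the 11 further lists, the 4 phases and all 13179 genes tested, with the number tested in parentheses. The bars to the left are longest for G2/M, the spindle checkpoint and the kinetochore, spindle and cytokinesis list.

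The libraries summed to 34949840 to 36667123 normalized counts, with 12832 to 13040 genes at 10 or more. All 11 markers of noradrenergic neuroblastoma and neurons reached a mean of 10, and their sum was 33531 to 36164 in DMSO, 34030 to 36435 in LCX and 43372 to 45710 in HCX, with 4 called higher and 0 lower in each HCX comparison. Of 16 markers of other cell types, the 4 epithelial ones summed to at most 16.8 normalized counts in any library. The 4 fibroblast markers summed to 627 to 734 in DMSO, 691 to 779 in LCX and 388 to 508 in HCX, the 4 immune and endothelial ones to 255 to 268, 271 to 285 and 163 to 226, and the 4 glial ones to 81.1 to 116, 90.04 to 120 and 79.2 to 91.9. None of these 16 was at 0 in every library. The part of these differences in the cell cycle results was not tested.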

How the data were processed

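RNA of 9 Neuro2A libraries (3 DMSO, 3 LCX and 3 HCX) was sequenced. The authors aligned reads to mm10 with TopHat2 and Bowtie, filtered low expression and normalized in Partek Flow, with versions not given in the sources used here. The authors deposited normalized counts, a signal that is not whole and not raw, so read depth per library is unknown, and the exact scaling is not given in the sources used here. Values were tested as log2(value + 1) with limma-trend (limma 3.58.1, R 4.3.3) over 13179 genes with at least 10 normalized counts in at least 3 libraries. All 3 groups shared 1 fit (6 residual and 13.8 prior degrees of freedom), with Benjamini-Hochberg adjustment within each of 3 comparisons, and scripts were tested on simulated data. Fold changes are on the log2(value + 1) scale, which understates those of low genes.

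Genes and lists were chosen with earlier results of these data known. Library values were given for genes called in an HCX comparison, the G1/S circuit and the MCM ring, and up to 3 called genes with the smallest adjusted p were eligible from each further list. Alternatives were RLE and library size scaling, limma-voom, pseudocounts of 0.5 and 10, no filter or 10 in every library, a replicate block, only the 6 libraries compared, a threshold of 0.01, and leaving out each library. Levels per kilobase used the longest principal transcript, and stretches of 31 bases shared between genes were counted (GENCODE release M21). Tables and figures were made with Python 3.11.15, numpy 2.4.6, pandas 2.3.3 and matplotlib 3.10.9.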

Additional observations from a re-analysis of the deposited data

How the results depend on the processing

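The calls of 8 of 18 genes against DMSO (Rrm1, Rrm2, Ccnb1, Cdc25b, Tpx2, Kif11, Bub1b and Cdc20) and 4 of 17 against LCX (Gins2, Rrm2, Cdc25b and Cdc20) held in all 18 alternatives at an adjusted p under 0.05, and no called gene reversed. Read depth is not known from normalized counts, so no counting interval was given, and 3 libraries per group limit every call. The cause of the changes below was not tested.

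Against DMSO, 9 genes passed an adjusted p under 0.01 (1 higher and 8 lower), beside 341 higher and 874 lower of all genes tested. Library size scaling gave 5 higher and 8 lower (beside 9.92% and 7.33% of all genes tested). Limma-voom gave 5 higher and 7 lower (beside 1301 and 930 of all genes tested), and no filter 1 higher (beside 634). The G1/S control median was 0.052 with library size scaling and with limma-voom. The G2 and mitosis median was -0.098 with RLE scaling and -0.082 with the other 2, and the checkpoint median -0.12 with RLE and -0.10 with library size scaling, and -0.11 with limma-voom. Against LCX, 6 genes passed 0.01 (2 higher and 4 lower), beside 470 higher and 586 lower of all genes tested. Between LCX and DMSO, the G2 and mitosis median was 0.0075 with RLE, and the checkpoint median 0.015 with RLE, 0.01267 with library size scaling and 0.0127 with limma-voom.

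Without any one library, the genes called against DMSO were 13 to 18 (1 to 3 higher and 12 to 17 lower), and against LCX 5 to 19 (2 to 5 higher and 3 to 14 lower). The G1/S control median against DMSO was then -0.082 to 0.029, and the replication median between LCX and DMSO -0.10 to 0.0023.

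Correlations between samples with the same number were small (r from -0.104 to 0.104 over 9 pairs, 1 of them over 0.1). Yet 6 of 9 samples correlated best with their own number. Between DMSO and HCX, same-number pairs gave 0.0672, 0.104 and 0.086, and all pairs of unlike number were negative (-0.0712 to -0.0171). Pairs with LCX were of both signs, whether or not the numbers matched. The numbers were not taken as pairs in the main fit, and whether the samples were paired is not known. A fit with the replicate block called 16 genes against DMSO (2 higher and 14 lower) and 17 against LCX (5 higher and 12 lower).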
